A study of Pleuronichthys verticalis with 38 samples.

Results

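Among the 14757 probes of a custom array for hornyhead turbot (Pleuronichthys verticalis), 100 were collected here because their liver signal was higher in every group of injected fish than in uninjected fish, whatever had been injected. They were picked from measured values. A probe had to be well above background on at least 30 of the 38 arrays, which 7628 probes were. The mean of its 4 exposed group means had to lie within 0.25 log2 units of the oil control mean, which held for 4971 of those. All 5 injected group means had to exceed the seawater control mean, and 1038 probes met all of these conditions. They were ordered by the smallest of the 5 differences from seawater, and the 100 with the largest such value were kept. Every comparison with seawater controls and with oil controls was thus used in the choice, so those values are given as a description without a test.

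The fish of the High PCB group (7 fish) were given a single intraperitoneal dose of 10 µg/g body mass of a PCB mixture in peanut oil, and those of the Low PCB group (5 fish) 1 µg/g of the same mixture. Per the labels, the mixture held 13 congeners, which in descending order of congener number were PCB180, PCB170, PCB153, PCB149, PCB138, PCB118, PCB105, PCB101, PCB99, PCB87, PCB66, PCB52 and PCB49. The High PBDE group (6 fish) had 5 µg/g and the Low PBDE group (7 fish) 0.5 µg/g of a mixture of BDE100, BDE99 and BDE47. The Oil Control group (6 fish) had peanut oil alone, and all injected fish had 2 mL of oil per kg. The Seawater Control group (7 fish) was not injected, so that group lacked both the needle and the oil. Livers of injected fish were taken 96 hours after the injection, and no time of sampling is given here for the uninjected seawater fish. All fish were killed with the anaesthetic tricaine methanesulfonate, and each array holds the RNA of 1 fish. Females numbered 1 in the High PCB group, 4 in Low PCB, 0 in High PBDE, 2 in Low PBDE, 1 in Oil Control and 2 in Seawater Control. The High PBDE and Oil Control groups had 1 immature fish each, and the other fish were males. No age, strain or rearing history is stated in the labels used here. The labels of Seawater Control 7 are at odds, since the description reads vehicle control where the other fields read seawater, and the fish was kept with the seawater group.

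The liver of a bony fish makes most plasma proteins, stores and exports lipid, and breaks down foreign compounds. PCBs are former insulating fluids and PBDEs are flame retardants. Dioxin-like PCBs are known for switching on the aryl hydrocarbon receptor, whose classic target in fish liver is the monooxygenase gene cyp1a. An injection into the body cavity brings its own burden: a wound, a lipid load and handling stress, to which fish livers are known to respond with acute-phase proteins, cortisol-dependent genes and lipid-handling genes. A vehicle group serves to hold that burden equal across doses, and a seawater group gives levels without an injection. The probes are named by contig numbers of a turbot transcriptome and carry no gene name or sequence in the files, so the roles of the 100 are not given here and the labelled tissue could not be set against liver markers.

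A level below is the log2 signal of a probe minus that of the 75th percentile of its array, so 0 is the brightness of that percentile and a step of 1 is a doubling. Levels are compared between fish for 1 probe at a time, because brightness also depends on the probe itself. The 75th percentile lay between 43.6 and 149 signal units in High PCB arrays, between 59.4 and 194 in Low PCB, between 102 and 175 in High PBDE, between 74.3 and 184 in Low PBDE, between 90.9 and 163 in Oil Control and between 88.8 and 153 in Seawater Control. Between 6113 and 10354 probes were well above background per array. The 38 arrays lay on 8 slides scanned on 3 days, and slides 1 and 8 held no seawater fish. The whole liver was measured, so more cells of a type and more RNA per cell cannot be told apart.

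Taken fish by fish, the median level of the 100 probes ran lowest 0.33, median 0.51 and highest 1.17 in High PCB livers. In the 5 Low PCB livers it was 1.04, 0.81, 0.79, 0.72 and 0.70. It ran 0.45, 0.77 and 1.08 in High PBDE livers, 0.40, 0.56 and 1.08 in Low PBDE livers, 0.32, 0.70 and 1.05 in Oil Control livers and −0.41, −0.12 and 0.21 in Seawater Control livers. The lowest injected fish stood above the highest seawater fish, and the 5 injected groups overlapped each other throughout. The choice of members by group means makes such a gap in their median, so its absence of overlap adds nothing. The group means of this median were 0.58 ± 0.28 (SD, n = 7) in High PCB, 0.81 ± 0.14 (n = 5) in Low PCB, 0.76 ± 0.22 (n = 6) in High PBDE, 0.62 ± 0.22 (n = 7) in Low PBDE, 0.69 ± 0.27 (n = 6) in Oil Control and −0.10 ± 0.21 (n = 7) in Seawater Control. An injected fish had 76 to 98 of the 100 probes above their seawater mean, and a seawater fish had 42 to 71.

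**Figure D1:**
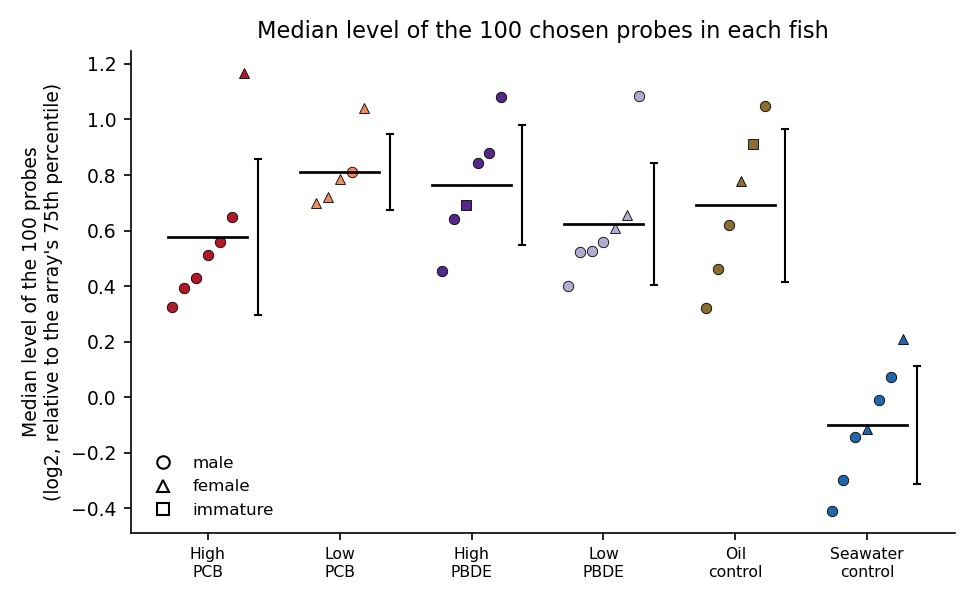
The median level (log2, relative to the array's 75th percentile) of the 100 probes is plotted for each fish by group, with the marker shape giving the sex, the line the group mean and the bar 1 SD. The 31 injected fish lie between 0.32 and 1.17 and the 7 seawater fish between −0.41 and 0.21, a gap that follows from how the probes were chosen.

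The differences from seawater were mostly moderate. The mean of all 31 injected fish was 1.35 to 8.05 times the seawater mean, with a median of 1.60 times over the 100 probes. Ratios here and below come from differences of mean log2 levels. A ratio of mean signals would weigh the brightest fish more and can differ. In all, 78 probes were past 1.5 times and 13 past 2 times. The choice raises these counts, and their share over all measured probes was not taken. The 8.05 comes from HT_SCCWRP_45966, which was near background in most seawater fish, so that ratio has no firm size, and the next was 5.15 for HT_SCCWRP_37904, measured in every fish. The seawater means of 25 of the 100 include values at background. By group, the median difference over the 100 was 0.66 (log2) in High PCB, 0.76 in Low PCB, 0.70 in High PBDE, 0.59 in Low PBDE and 0.70 in Oil Control. Over the 7628 probes measured, the same medians were −0.03, 0.01, −0.05, −0.01 and 0.01. All 5 injected means exceeded the seawater mean in 1439 probes, 18.9% of those measured. The smallest difference of the 100 chosen had a median of 0.49 and a highest value of 1.56. With the limit around the oil mean added, 1038 probes met the rule. The mirrored rule, with all 5 means below seawater and the same limit, was met by 1195 probes. Its leading 100 had a median of 0.41 and a highest value of 1.18.

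The margin at the end of the list was narrow. The last members, HT_SCCWRP_5246, HT_SCCWRP_4201 and HT_SCCWRP_18004, had smallest differences of 0.396, 0.387 and 0.386. The first probes left out, HT_SCCWRP_4058, HT_SCCWRP_13956 and HT_SCCWRP_11461, had 0.384, 0.383 and 0.374. No step in the values separates members from the probes that follow them.

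The groups took turns at the edges of the range. The smallest of the 5 differences belonged to Low PBDE in 33 probes, High PCB in 22, High PBDE in 21, Oil Control in 13 and Low PCB in 11. The largest belonged to Low PCB in 33, High PBDE in 27, Low PBDE in 18, High PCB in 14 and Oil Control in 8. These tallies come from the group means the rule used, and the limit around the oil mean favours a middle place for Oil Control. No such tally was taken over all measured probes. The 5 injected means of a probe spanned a median of 0.37, against 0.44 over all measured probes. The mean of the exposed groups minus the oil mean had a median of 0.00 over the 100 and −0.02 over all measured probes, and the rule bounded it to 0.25 in either direction.

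**Figure D2:**
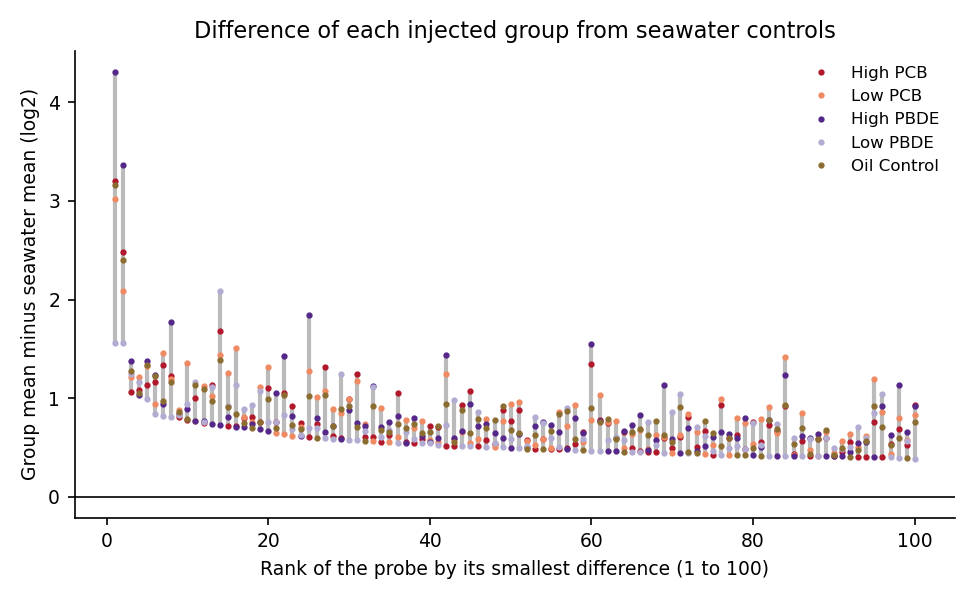
For each of the 100 probes, ordered by its smallest difference, the points give the mean of each injected group minus the Seawater Control mean (log2) and the grey line joins the smallest to the largest. The leading 2 probes start at a smallest difference of 1.56, and the list ends at 0.386 with the 5 groups interleaved.

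The probe with the largest margin, HT_SCCWRP_45966, had a within-group SD of 2.67, the widest of the 100. It ran lowest −4.67, median −0.0050 and highest 3.65 in High PCB livers. In the 5 Low PCB livers it was 2.48, 0.62, 0.55, −1.15 and −2.48. It ran −1.74, 2.05 and 2.83 in High PBDE, −5.26, −3.23 and 2.64 in Low PBDE, −5.75, 1.46 and 1.85 in Oil Control, and −5.81, −4.25 and 0.99 in Seawater Control. Fish above 0 and fish below 0 occurred in each group, and the seawater range overlapped that of each injected group. The means were 0.19 ± 2.63 (SD, n = 7) in High PCB, 0.00 ± 1.89 (n = 5) in Low PCB, 1.29 ± 1.73 (n = 6) in High PBDE, −1.46 ± 3.60 (n = 7) in Low PBDE, 0.15 ± 2.96 (n = 6) in Oil Control and −3.02 ± 2.45 (n = 7) in Seawater Control. It cleared the background mark in 27 of 31 injected fish and 3 of 7 seawater fish, so its low values are near the limit of measurement. The injected mean was 8.05 times the seawater mean, and 15 of the 31 injected fish were above every seawater fish. Its fitted difference of 3.01 became 1.25 with normexp, another way of removing background that starts from the raw spot signals. As run here, normexp also added an offset of 50 signal units to each spot.

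HT_SCCWRP_37904, next in the order, was measured above background in all 38 fish and had a within-group SD of 1.69. It ran −0.87, 3.44 and 7.36 in High PCB livers, and 4.72, 3.65, 2.21, 1.61 and 0.64 in the 5 Low PCB livers. It ran 2.50, 3.05 and 7.89 in High PBDE, 1.06, 2.03 and 3.27 in Low PBDE, 1.84, 2.85 and 3.95 in Oil Control, and −1.02, 0.47 and 2.69 in Seawater Control. The 2 highest fish, a High PBDE fish at 7.89 and a High PCB fish at 7.36, stood far above the rest, and the seawater range overlapped that of each injected group. The injected mean was 5.15 times the seawater mean.

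A smaller and steadier difference was shared by HT_SCCWRP_8317 and HT_SCCWRP_13738, which were singled out after their values were seen. HT_SCCWRP_8317 ran 3.24, 3.70 and 4.13 in High PCB livers, and 4.12, 4.04, 3.85, 3.70 and 3.44 in the 5 Low PCB livers. It ran 3.15, 3.50 and 3.89 in High PBDE, 2.98, 3.28 and 4.03 in Low PBDE, 3.42, 3.49 and 3.65 in Oil Control, and 2.69, 2.83 and 3.06 in Seawater Control. The 2 lowest Low PBDE fish reached into the seawater range, and 29 of the 31 injected fish were above every seawater fish. HT_SCCWRP_13738 averaged 4.45 ± 0.27 (SD, n = 7) in High PCB, 4.61 ± 0.13 (n = 5) in Low PCB, 4.41 ± 0.17 (n = 6) in High PBDE, 4.33 ± 0.25 (n = 7) in Low PBDE, 4.24 ± 0.20 (n = 6) in Oil Control and 3.82 ± 0.17 (n = 7) in Seawater Control. For that probe 26 injected fish were above every seawater fish. The injected mean was 1.64 times the seawater mean for HT_SCCWRP_8317 and 1.5 times for HT_SCCWRP_13738.

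**Figure D3:**
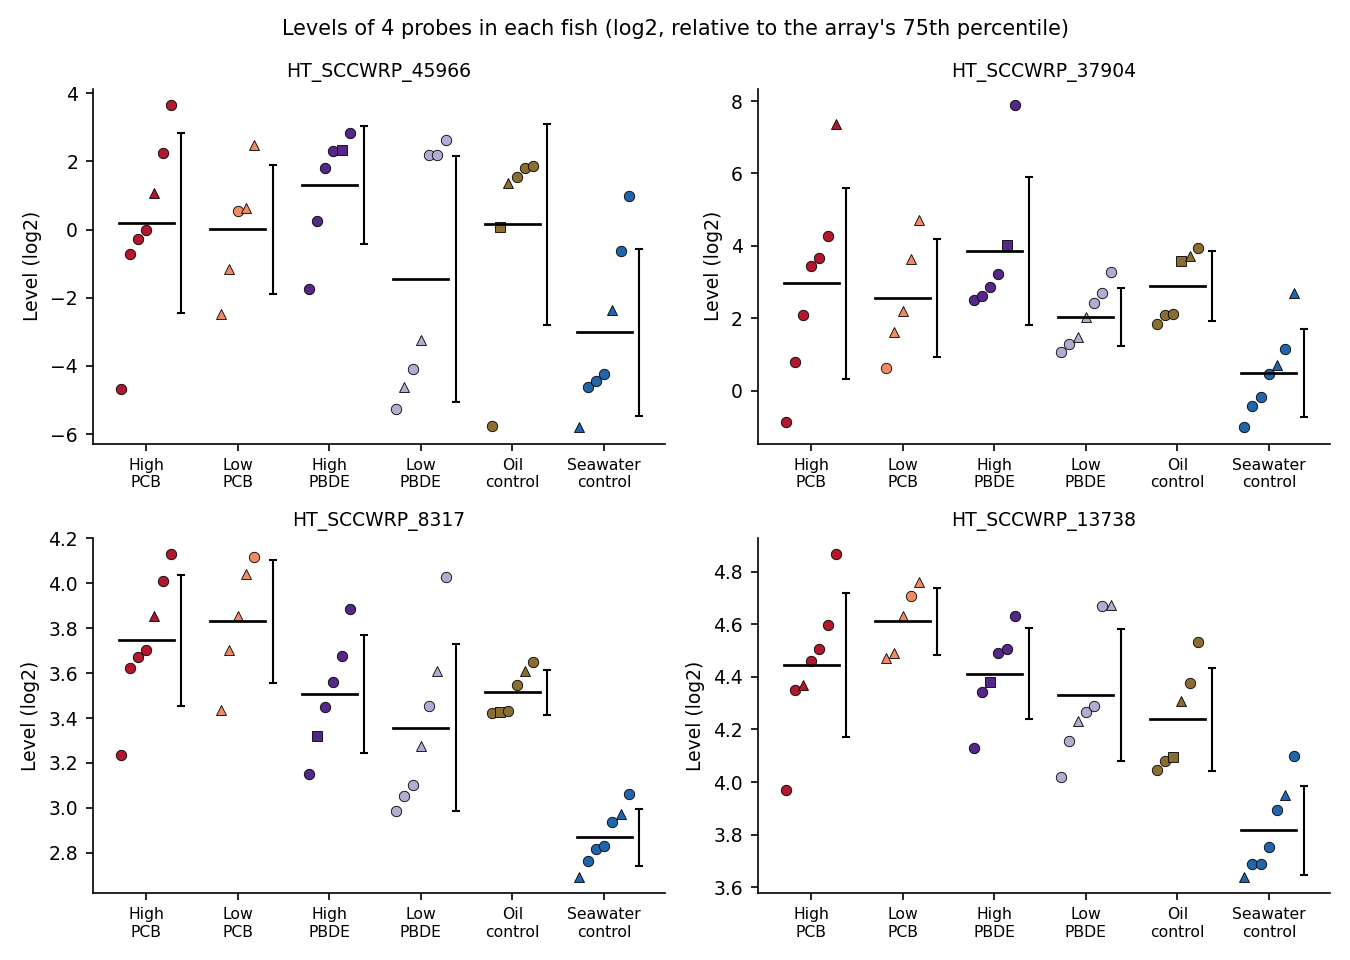
Levels (log2, relative to the array's 75th percentile) of 4 probes are shown for each fish by group, with circles for males, triangles for females and squares for immature fish, the line the group mean and the bar 1 SD. HT_SCCWRP_45966 and HT_SCCWRP_37904 scatter over many log2 units within groups, whereas HT_SCCWRP_8317 and HT_SCCWRP_13738 keep the seawater fish between 2.69 and 3.06 and between 3.64 and 4.10, below most injected fish.

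The other 8 of the 10 largest margins had ratios of injected to seawater means between 1.79 and 2.34. HT_SCCWRP_10276 averaged −3.12 ± 0.53 (SD, n = 7) in High PCB, −2.97 ± 0.88 (n = 5) in Low PCB, −2.81 ± 0.93 (n = 6) in High PBDE, −2.94 ± 0.63 (n = 7) in Low PBDE, −2.90 ± 0.64 (n = 6) in Oil Control and −4.18 ± 1.37 (n = 7) in Seawater Control. HT_SCCWRP_20523 lay between −2.24 and −2.06 in the 5 injected group means and at −3.28 ± 0.84 in Seawater Control. Both are dim probes, well above background in 3 and 4 of the 7 seawater fish and in 28 of the 31 injected fish each. Their difference depended on the processing. From 1.22 and 1.19 in the fit to the processed signal, it became −0.060 and −0.0083 with normexp and its offset.

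HT_SCCWRP_8582 was bright enough to be measured in all fish and averaged 1.00 in High PCB, 1.19 in Low PCB, 1.25 in High PBDE, 0.87 in Low PBDE, 1.21 in Oil Control and −0.13 in Seawater Control, with SDs from 0.55 to 0.93. HT_SCCWRP_12355 averaged 0.42 in High PCB, 1.00 in Low PCB, 0.53 in High PBDE, 0.58 in Low PBDE, 0.43 in Oil Control and −0.36 in Seawater Control, with SDs from 0.32 to 0.63. HT_SCCWRP_3093 averaged −0.52 in High PCB, −0.40 in Low PCB, −0.92 in High PBDE, −1.04 in Low PBDE, −0.88 in Oil Control and −1.86 in Seawater Control, with SDs from 0.38 to 1.04. For HT_SCCWRP_12355, 24 injected fish were above every seawater fish, for HT_SCCWRP_8582 18 and for HT_SCCWRP_3093 8. With normexp the fitted difference of HT_SCCWRP_12355 became 0.52, against 0.99 from the processed signal, and that of HT_SCCWRP_3093 became 0.26, against 1.08.

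HT_SCCWRP_25343 came closest to the same level in all injected groups. Its injected means were −0.60 in High PCB, −0.53 in Low PCB, −0.56 in High PBDE, −0.57 in Low PBDE and −0.55 in Oil Control, a span of 0.07 that was the narrowest of the 100, and −1.40 in Seawater Control. Its fish did vary, with SDs from 0.43 to 0.79, so the likeness holds for the means and not for single fish. Of the 31 injected fish, 22 were above every seawater fish. Its difference was 0.82 in the fit and 0.27 with the normexp correction. HT_SCCWRP_13012 and HT_SCCWRP_11168 complete the 10 and are described with the probes they varied with.

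The within-group SD of a member had a median of 0.59, against 0.48 over all measured probes. The injected mean exceeded the seawater mean by more than 1 within-group SD in 70 members and by more than 2 in 6. The choice raises both counts, and their share over all measured probes was not taken. None of the 100 (0), and 0 of all 7628 measured probes (0%), had each injected fish above each seawater fish. The median injected fish was above every seawater fish in 45 members, against 4.12% of measured probes, a share that the choice itself raises. Per member, 1 to 29 of the 31 injected fish were above every seawater fish, with a median of 15. HT_SCCWRP_18538 came nearest to full separation, with its lowest injected fish 0.03 below its highest seawater fish. In 8 members all 31 injected fish were above the seawater mean, also a count that the choice raises, with no share over all measured probes taken.

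Of the 100, 70 cleared the background mark on all 38 arrays, 73 in all injected fish and 75 in all seawater fish. A probe could pass the minimum of 30 arrays through the 31 injected fish alone. The other 25 rest in part on seawater values at background. The mean levels of members spanned bright and dim probes: HT_SCCWRP_1576 (6.11), HT_SCCWRP_1326 (5.82) and HT_SCCWRP_954 (5.70) had the highest, and HT_SCCWRP_26488 (−3.09), HT_SCCWRP_35070 (−3.12) and HT_SCCWRP_10276 (−3.18) the lowest. All 53 members with a mean level above 0 were also higher in injected fish with normexp, with a median of 0.78 against 0.68 from the processed signal. Of the 47 with a mean level under 0, 17 turned lower, each with a level under −2.0, and the median was 0.06 against 0.68. Without the normexp offset of 50, 7 of the 100 turned lower, and the median of those 47 was 0.26.

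Whether dose or mixture mattered for these probes was asked with comparisons the rule had not used as such. The rule did use the same group means, so the choice may still affect these differences. It held the average of the exposed means near the oil mean and each mean above seawater. It set no direct limit on how far the exposed groups differed from each other. High PCB was set against Low PCB and High PBDE against Low PBDE, and the mixtures were compared within the high and the low level. The mixtures differed in dose by weight (10 against 5 µg/g and 1 against 0.5 µg/g), so a difference between them would hold both. All 38 arrays entered 1 linear model of group and sex fitted with limma over 10490 probes, with adjustment by Benjamini and Hochberg over all of them.

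Between High PCB and Low PCB, 0 members passed an adjusted p of 0.05 in limma, where 0% of all probes did. At an unadjusted p under 0.05 there were 2 members, against 3.04% of all probes. The fitted difference had a median of −0.02 over the 100 and −0.05 over all probes, with 45 members higher and 55 lower in High PCB. For this and the comparisons below, the share of all probes that were higher was not taken. The 95% interval reached a median of 0.75 log2 units to either side, a factor of 1.68. For a member with that interval, a smaller difference could not be told from 0, even before adjustment. The smallest p belonged to HT_SCCWRP_8683, which averaged 1.83 ± 0.32 (SD, n = 7) in High PCB and 2.18 ± 0.23 (n = 5) in Low PCB. Its fitted difference was −0.54 (SE 0.23), with a limma adjusted p of 0.999, and it was 0.0085 when males alone were fitted, −0.35 with no term for sex and −0.84 without slides 1 and 8. Low PCB held 1 male and High PCB 6, so sex and dose are partly tied in that comparison.

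Between High PBDE and Low PBDE, 0 members passed, as 0% of all probes did, and 5 were under an unadjusted p of 0.05, against 4.00% of all probes. The median difference was 0.06 over the 100 and −0.04 over all probes, with 63 members higher and 37 lower in High PBDE. The interval reached a median of 0.67 to either side. HT_SCCWRP_37904 had the smallest p. It averaged 3.85 ± 2.05 (SD, n = 6) in High PBDE and 2.04 ± 0.81 (n = 7) in Low PBDE, with a fitted difference of 2.19 (SE 0.87, 95% interval 0.43 to 3.95) and a limma adjusted p of 0.999. Without High PBDE 11, the fish at 7.89, the difference was 1.26.

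High PCB against High PBDE gave 0 members past the adjusted threshold (0% of all probes) and 1 under an unadjusted p of 0.05 (3.97% of all probes), with a median difference of −0.04 and an interval of 0.66 to either side. That member was HT_SCCWRP_10323, which averaged −1.97 ± 0.48 (SD, n = 7) in High PCB and −1.44 ± 0.44 (n = 6) in High PBDE. Its difference was −0.66 (SE 0.29) with a limma adjusted p of 1.00, and it was −0.089 with normexp and −0.38 with slide as a block. Low PCB against Low PBDE gave 0 members (0% of all probes) and 2 under an unadjusted p of 0.05 (4.24% of all probes), with a median of 0.06 and an interval of 0.72 to either side. HT_SCCWRP_28822 had the smallest p there. It was 4.53, 4.38, 4.00, 3.49 and 2.33 in the 5 Low PCB livers and ran 2.16, 2.98 and 3.21 in Low PBDE livers. Its groups overlapped in 1 Low PCB fish, and the difference was 0.99 (SE 0.36) with a limma adjusted p of 0.999. In males alone the difference was 1.60, but Low PCB held only 1 male. The dose difference of PCB minus that of PBDE passed in 0 members (0% of all probes), with 1 under an unadjusted p of 0.05 (3.01% of all probes). These p-values do not show that doses or mixtures act alike on these probes. The intervals reached 0.66 to 0.75 to either side, beside a median fitted difference from seawater of 0.68.

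Sex was compared in the same model, over 8 females and 21 males among injected fish and 2 females and 5 males among seawater fish. In limma, 0 members passed an adjusted p of 0.05 (0% of all probes), and 4 were under an unadjusted p of 0.05, 3 of them higher in females, against 5.67% of all probes. Of the 100, 71 were higher and 29 lower in females, with a median difference of 0.06 against −0.01 over all probes. The interval was narrower than for doses, at a median of 0.50 to either side. HT_SCCWRP_15845 had the smallest p, with a difference of −0.88 (SE 0.22, 95% interval −1.32 to −0.44) and a limma adjusted p of 0.386. It lay between −2.74 and −2.48 in the 5 injected group means and at −3.15 ± 0.66 (SD, n = 7) in Seawater Control. With normexp its difference between the sexes was −0.097.

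As a description of values the rule had used, the fitted differences from Oil Control in the same model had medians over the 100 of −0.0090 in High PCB, 0.02 in Low PCB, 0.03 in High PBDE and −0.03 in Low PBDE. These comparisons share the 6 oil fish. The limit of 0.25 in the rule bounds the average difference of the plain group means, not of the fitted ones. The fitted mean of the 4 exposed groups minus oil ran from −0.47 to 0.39 over the 100.

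Members were followed across the slides, since arrays of 1 slide are hybridised together. With group and sex in the model, 4 of the 100 differed between slides at an adjusted p of 0.05 in limma's F-test, against 9.90% of all probes, and 4 between scan days, against 7.81%. At an unadjusted p under 0.05 there were 17 for slides (27.6% of all probes) and 13 for scan days (22.7%). Those that differed between slides were HT_SCCWRP_29710, HT_SCCWRP_5246, HT_SCCWRP_10323 and HT_SCCWRP_24187. The values by slide that follow split the same fish by which the probes were chosen. They describe those fish and give no separate support. On each of the 6 slides that held both kinds of fish, the fish-wise median of the 100 was higher in every injected fish than in the seawater fish of that slide. The median member difference between injected and seawater fish was 0.84, 0.80, 0.45, 0.68, 0.65 and 0.56 on slides 2 to 7, with 95, 96, 84, 85, 90 and 81 members higher in injected fish. Over all measured probes the median difference was −0.048 to 0.0037 on those slides, and 46.2% to 50.3% of probes were higher. Within scan days the median member difference was 0.82, 0.67 and 0.60. Over all measured probes it was −0.019, −0.0066 and −0.017. By member, 47 were higher on all 6 slides, 38 on 5, 14 on 4 and 1 on 3. Of all measured probes 3.24% were higher on all 6, and the choice itself raises the count among members. Slide 1, with 5 injected fish and no seawater fish, had fish medians between 0.78 and 1.17, and the part of the slide in those values was not tested.

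**Figure D4:**
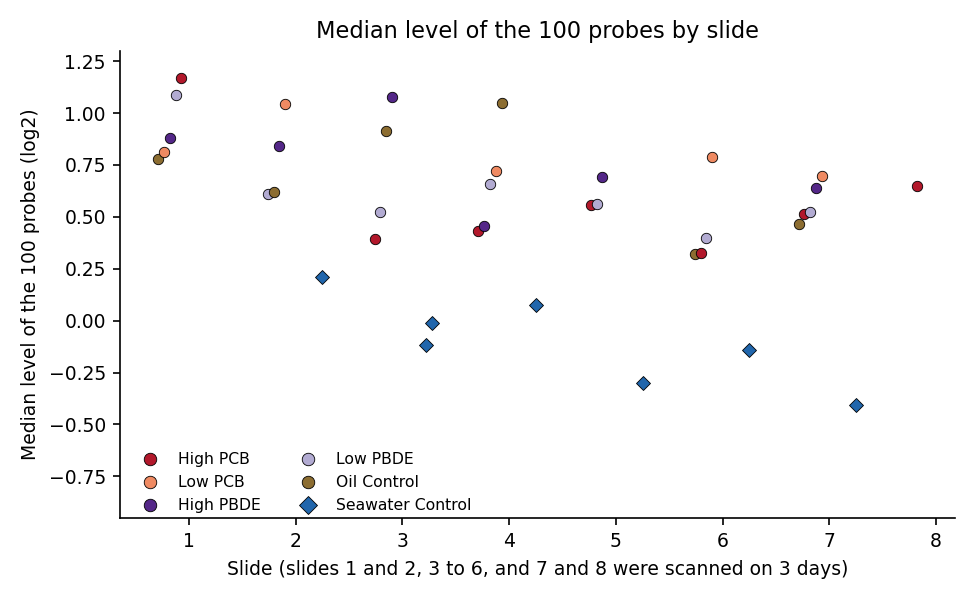
The median level of the 100 probes (log2) is plotted for each fish by slide, with circles for injected fish, coloured by group, and blue diamonds for seawater fish. On slides 2 to 7 the seawater fish lie below the injected fish of their own slide, a gap that follows from how the probes were chosen. Slides 1 and 8 have no seawater fish.

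The 100 were only loosely tied from fish to fish. After the group means were taken off, the correlation between 2 members over the 38 fish had a median of 0.05, against 0.00 for pairs of measured probes. Values of at least 0.6 joined 28 pairs, 0.566% of member pairs against 0.434% of pairs of measured probes. The points of such a correlation share the array, its scaling and its slide. The 28 pairs linked 23 members into 5 sets, formed after the values were seen. The share of linked pairs was close to that of all measured probes, so such sets are not particular to the members. Lower seawater levels in the sets follow from the choice of probes. One had 11 probes, another 6, and each of the other three had 2.

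The set of 6 held HT_SCCWRP_13012 and HT_SCCWRP_11168 with HT_SCCWRP_66326, HT_SCCWRP_30188, HT_SCCWRP_30988 and HT_SCCWRP_4563. Its mean level ran 0.15, 0.83 and 2.20 in High PCB livers, 0.27, 0.70 and 1.66 in Low PCB, 0.19, 0.73 and 2.75 in High PBDE, 0.20, 0.76 and 1.17 in Low PBDE, 0.32, 0.79 and 1.93 in Oil Control and −0.67, 0.05 and 0.83 in Seawater Control. A few fish of different groups stood out: High PBDE 23 at 2.75, High PBDE 11 at 2.66, High PCB 40 at 2.20 and Oil Control 47 at 1.93. HT_SCCWRP_13012 averaged 5.91 ± 0.82 (SD, n = 7) in High PCB, 5.69 ± 0.56 (n = 5) in Low PCB, 5.98 ± 1.31 (n = 6) in High PBDE, 5.59 ± 0.86 (n = 7) in Low PBDE, 5.97 ± 0.83 (n = 6) in Oil Control and 4.75 ± 0.67 (n = 7) in Seawater Control. HT_SCCWRP_11168 averaged −2.77 ± 0.71 in Seawater Control, with injected means from −1.96 to −1.0, and its fitted difference of 1.3 became 0.30 with normexp. Of the 7528 measured probes outside the 100, 101 (1.34%) followed the mean of this set with a correlation of at least 0.6.

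The set of 11 had HT_SCCWRP_8516 at its centre, linked to 7 of the others, and held HT_SCCWRP_18538. Its mean level averaged 1.82 ± 0.47 (SD, n = 7) in High PCB, 2.03 ± 0.35 (n = 5) in Low PCB, 1.79 ± 0.27 (n = 6) in High PBDE, 1.97 ± 0.39 (n = 7) in Low PBDE, 1.92 ± 0.43 (n = 6) in Oil Control and 1.21 ± 0.27 (n = 7) in Seawater Control. The seawater fish ran from 0.82 to 1.60 and overlapped the low end of each injected group. The within-group deviations of the 2 sets had a correlation of 0.21 over the 38 fish. Outside the 100, 197 measured probes (2.62%) followed the set of 11.

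**Figure D5:**
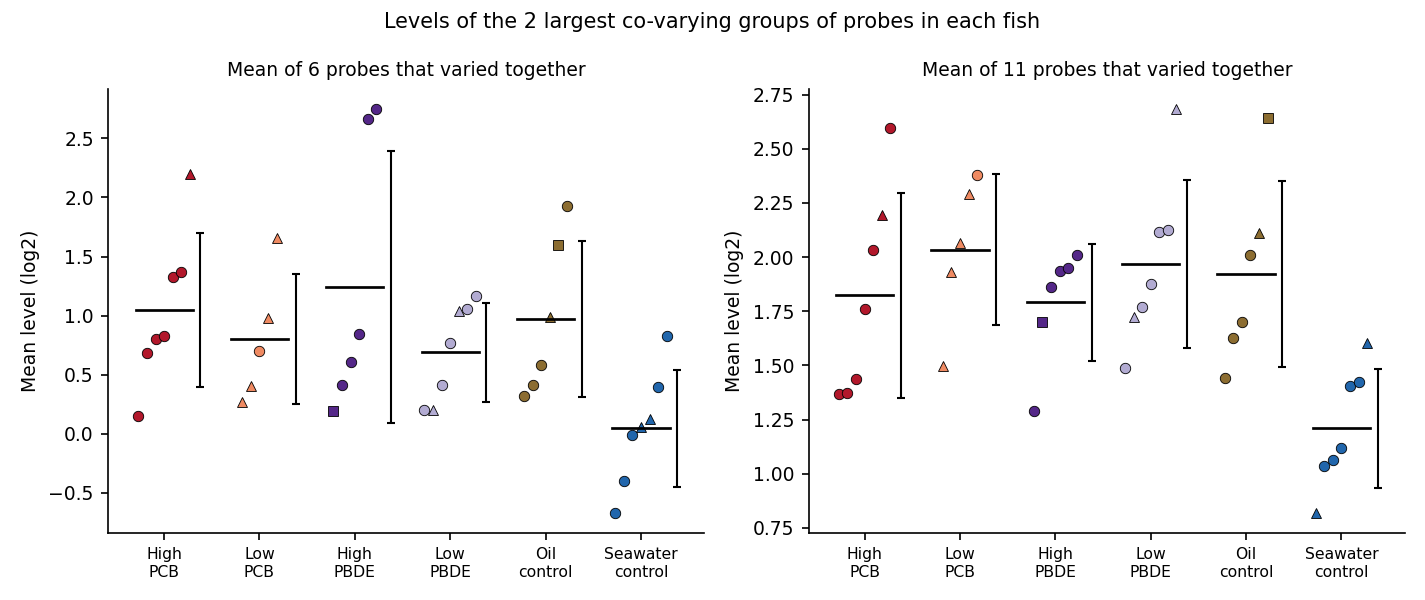
The mean level (log2, relative to the array's 75th percentile) of the set of 6 probes (left) and of the set of 11 (right) is plotted for each fish by group, with circles for males, triangles for females and squares for immature fish, the line the group mean and the bar 1 SD. The set of 6 has a few fish above 1.9 in High PCB, High PBDE and Oil Control, and the set of 11 spreads more evenly, with the seawater fish between 0.82 and 1.60.

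The list itself depended on single fish. With 1 fish left out, between 68 and 93 of the 100 probes stayed among the 100 chosen, the fewest without Oil Control 20. Leaving out an oil fish kept 68 to 83, a seawater fish 75 to 83 and an exposed fish 84 to 93. There were 37 members that stayed whichever seawater fish was left out, among them 9 of the leading 10. The median difference between injected and seawater fish over the same 100 probes lay between 0.65 and 0.73. Those probes had been chosen for that difference with all 38 fish, so this range does not measure its steadiness.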

How the data were processed

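Liver RNA of 38 hornyhead turbot was hybridised to 1-colour Agilent arrays, 1 fish per array. Per the file headers, the authors extracted spot intensity with Feature Extraction 11.5.1.1, and the processed signal is a background-subtracted linear intensity. The deposited series table holds the same intensity values to within 0.497% and was not used further. Its column medians lie between 4.95 and 24.3, which shows arrays that were not brought to 1 scale. Per the labels' protocols, RNA came from a Trizol kit.

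From the deposited intensity, log2 processed signal minus the array's 75th percentile was computed over 15207 non-control spots (0 saturated) and averaged per probe. Probes well above background on at least 5 arrays, less 10 with outlier flags, were fitted (10490) with limma 3.58.1 in R 4.3.3, by group and sex, with an intensity trend and two-sided tests. Intervals are at 95%, and p-values were adjusted by Benjamini-Hochberg over all probes fitted at a threshold of 0.05. The fit was also run on simulated data with independent noise and no slide or scan effect. That run does not cover such effects, and its outcome is not given here. Groups came from sample titles, and fish are separate animals. The number of arrays per group limits the precision.

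The members and lists were chosen with earlier results of these data known. Named probes are the 10 with the largest margin, those at both sides of the list's end, the smallest p per comparison of sexes, doses or mixtures, and the 3 highest and 3 lowest levels. No member met the rule for full separation. The planned gene lists and markers could not be applied without gene names. Probes named otherwise were chosen after their values were seen. Alternatives were background correction, normalization, filters, the terms of the model, the rule's limits, and leaving out fish or slides.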

Additional observations from a re-analysis of the deposited data

Results flagged for a closer look

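Each fish was compared with the others of its group for the median of the 100 probes and for the 14 named probes tested this way, by setting its gap to the nearest fish against the group's range (Dixon's test at 95%). This gave 90 tests and 7 outlying values, where chance gives about 1 in 20. The median of the 100 was 1.17 in High PCB 40, where the rest of its group ran from 0.33 to 0.65, and 1.08 in Low PBDE 12, against 0.40 to 0.66 in the other Low PBDE fish. Both lay on slide 1, which held no seawater fish, and the part of the slide was not tested for them.

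Among single probes, HT_SCCWRP_37904 was 7.89 in High PBDE 11, against 2.50 to 4.01 in the rest of that group. HT_SCCWRP_3093 was −2.92 in the same fish, below the rest of the group. HT_SCCWRP_11168 was 0.02 in Low PCB 2, against −2.18 to −1.75. HT_SCCWRP_20523 was −0.56 in Low PCB 52, against −2.70 to −2.23. HT_SCCWRP_45966 was −5.75 in Oil Control 45, below all other oil fish.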

How the results depend on the processing

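The counts of members for sex, dose and mixture were 0 under every alternative run, including each fish left out. The median difference of the 100 from seawater was 0.68 in the fit and ran from 0.47 to 0.70 across the other settings. The list was kept fixed there, so its choice for that difference holds these values up. For Low PCB it was 0.44 with normexp, against 0.73. Of the 100 probes, 28 stayed chosen with normexp (33 without its offset, an alternative added after the data were seen). In males alone 33 stayed, with Low PCB reduced to 1 fish. Without slides 1 and 8 (also added later) 64 stayed, and 50, by construction, when only 50 were kept. Leaving out 1 fish kept 68 to 93. With normexp and its offset, HT_SCCWRP_10276 (−0.060) and HT_SCCWRP_20523 (−0.0083) reversed, and neither did so in any other setting. In males alone HT_SCCWRP_8683 reversed between High PCB and Low PCB (0.0085), with 1 Low PCB male. The cause was not tested. No paired analysis was possible because fish numbers are not shared between groups. Dim probes are limited by background: 30 of the 100 were not well above it on every array.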
